A study of Mus musculus with 7 samples.

Results

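The 9 genes described here encode proteoglycans of the extracellular matrix: 7 small leucine-rich proteoglycans (Dcn, Bgn, Lum, Fmod, Ogn, Prelp and Aspn) and a pair of large ones (Vcan and Hspg2). They were chosen by name. Each matched 1 row of a table of 23420 gene rows, and all 9 passed the filter on low values and were among the 15258 genes tested. The table came from bulk RNA sequencing of the hearts of 7 untreated mice aged 3 to 6 weeks. The 4 control mice were Ctla4+/+;Pdcd1-/-. The 3 mice labelled ICI-myocarditis, a genetic model of the heart inflammation that immune checkpoint inhibitors (ICI) can cause, were Ctla4+/-;Pdcd1-/-. Every animal therefore carried the Pdcd1-/- label, controls included, and the groups differed in the number of Ctla4 copies. The tissue is labelled whole heart, while the protocol names cardiac ventricle.

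A proteoglycan is a protein core that carries glycosaminoglycan chains, which are long sulfated sugars. The small leucine-rich members are grouped by a curved core of leucine-rich repeats, whether or not they carry such chains. That core binds collagen fibrils and sets their spacing, and several members also bind growth factors such as TGF-beta. Versican, the Vcan product, is a large chondroitin sulfate proteoglycan that binds hyaluronan and forms a provisional matrix in developing or injured tissue. Perlecan, the Hspg2 product, carries heparan sulfate and sits in basement membranes around heart muscle cells and vessels. In the adult heart the small members are made mainly by fibroblasts.

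Vcan was the 1 gene of the 9 called higher in ICI-myocarditis, at an adjusted p under 0.05 in limma, and 0 were called lower (0 also at an unadjusted p under 0.05). Among all genes tested, 15.7% passed, 11.7% as higher and 4.00% as lower. The median log2 fold change was 0.51 over the 9 genes and -0.02 over all genes tested, with 7 of the 9 above 0 against 48.1% of all genes. Vcan was also the only one of the 9 whose libraries did not overlap between the groups, which held for 28.6% of all genes. Bgn had nearly the same fold change as Vcan but missed the threshold in limma. The other 7 did not pass in any of the 18 alternative analyses.

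**Figure D1:**
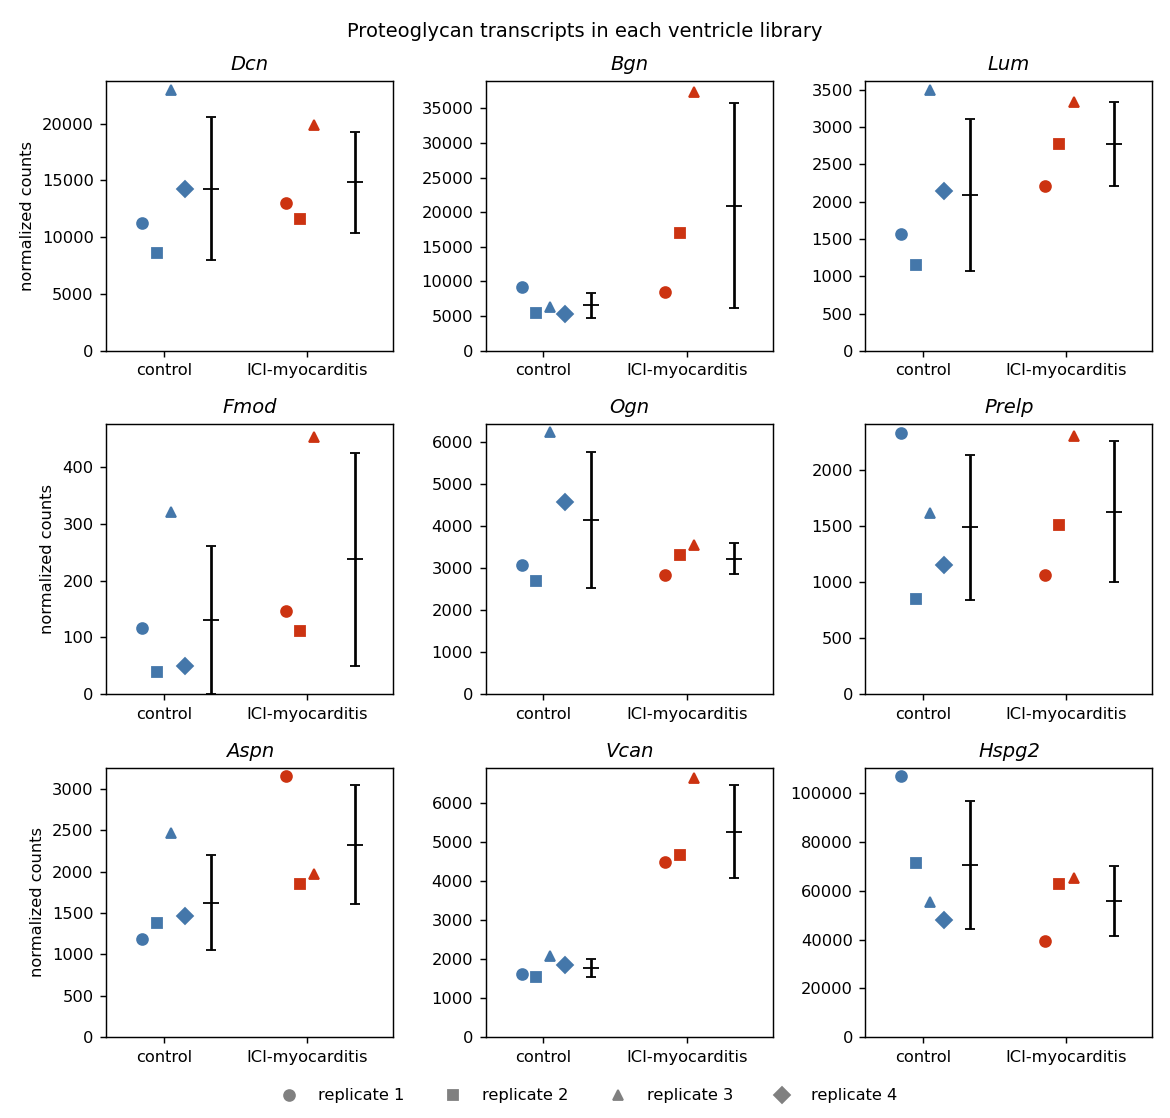
Normalized counts of each gene (y axes, linear from 0) in the 4 control and 3 ICI-myocarditis libraries (x axes). Marker shape gives the replicate number, and the black bar beside each group is mean ± SD. Vcan is the only panel without overlap, from 1549 to 2075 against 4499 to 6656, and the Bgn panel shows ICI-myocarditis 3 at 37297.

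Depth ranged from 20931730 to 39037176 reads assigned to genes per library. Reads of Pdcd1 were present in every library although all animals are labelled Pdcd1-/-, and which part of the gene they cover is not known here, so Pdcd1 and Ctla4 do not check the labels. Both were higher in ICI-myocarditis, from 63.3 ± 37.4 to 302 ± 63.4 (Ctla4) and from 64.8 ± 120 to 1305 ± 195 (Pdcd1) normalized counts (SD, n = 4 and 3). The 8 summed heart muscle markers were 1290000 to 2570000 normalized counts in controls and 806100 to 1387000 in ICI-myocarditis. Control 2 stood apart from the other controls on the first principal component, at 2.25 against -96.7 to -61.2, and its summed T cell markers were 1611 normalized counts against 128 to 203. In bulk tissue fewer cells of a type and less RNA per cell cannot be told apart, and this applies to every value below.

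Compared per kilobase of the longest coding transcript, Dcn was the most abundant of the 9 in controls, at 8124 ± 3559 normalized counts per kb (SD, n = 4). Hspg2 followed at 4965 ± 1849, Bgn at 2714 ± 744 and Ogn at 1612 ± 630. Lum (854 ± 418), Aspn (698 ± 245) and Prelp (412 ± 179) came next, then Vcan at 143 ± 19.1 and Fmod at 42.1 ± 41.8. Only the steps from Prelp down to Vcan and from Vcan down to Fmod separated all control libraries, and the ranges of the other neighbours overlapped. In ICI-myocarditis Bgn had the highest mean level per kb, 8653 ± 6114 (SD, n = 3), beside Dcn at 8432 ± 2538, and the ranges of these 2 overlapped. Vcan stayed eighth in order in that group, at 424 ± 96.6 per kb. With the length of all annotated exons merged, Hspg2 led in controls at 4923 ± 1834 and Dcn followed at 2446 ± 1072, so the order of the top 2 depends on the length used.

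Vcan lies on the minus strand of chromosome 13 (chr13:89655312-89742509, GRCm38, ENSMUSG00000021614.16), and its longest coding transcript has 15 exons. Splicing gives versican cores with more or fewer chondroitin sulfate chains, and counts per gene do not separate them. Bgn lies on the X chromosome (chrX:73483602-73495933, plus strand, ENSMUSG00000031375.17) with 8 exons in its longest coding transcript. The 250 bases before the RefSeq transcription start are shown for these 2 genes, which had the largest fold changes of the 9, and for Hspg2. The Hspg2 window also holds GC boxes, and the gene did not pass. That window ends at 137468802, past the annotated start of the gene at 137468769. The sequences are from RefSeq (GRCm38.p6), written 5′ to 3′ on the gene's strand, with matches to the GC box GGGCGG on either strand in capitals.
Vcan, chr13:89742513-89742762, minus strand: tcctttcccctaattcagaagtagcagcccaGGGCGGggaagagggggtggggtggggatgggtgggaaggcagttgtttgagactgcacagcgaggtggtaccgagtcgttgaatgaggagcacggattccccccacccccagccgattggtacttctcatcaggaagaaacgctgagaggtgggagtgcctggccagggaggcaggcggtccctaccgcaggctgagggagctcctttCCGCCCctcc
Bgn, chrX:73483351-73483600, plus strand: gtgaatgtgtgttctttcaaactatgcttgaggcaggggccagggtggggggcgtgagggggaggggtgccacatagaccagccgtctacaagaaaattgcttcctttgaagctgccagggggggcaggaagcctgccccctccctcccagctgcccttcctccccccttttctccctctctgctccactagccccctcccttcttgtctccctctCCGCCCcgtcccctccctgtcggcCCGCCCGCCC
Hspg2, chr4:137468553-137468802, plus strand: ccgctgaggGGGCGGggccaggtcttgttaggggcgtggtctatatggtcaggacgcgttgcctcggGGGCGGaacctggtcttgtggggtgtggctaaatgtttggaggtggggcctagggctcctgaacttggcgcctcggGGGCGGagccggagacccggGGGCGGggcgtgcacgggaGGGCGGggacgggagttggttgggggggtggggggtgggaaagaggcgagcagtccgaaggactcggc

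RefSeq promoter entries were matched for 7 of the 9 genes, Dcn and Lum not among them. GC boxes numbered 2 for Vcan, 3 for Bgn (of which a pair overlap) and 5 for Hspg2, and 32.7% of all 32851 windows of this length hold at least 1. These 3 windows were rich in G and C (62.4%, 64.4% and 70.0%, against a median of 52.4% over all windows), while the Aspn window held 30.0%. Fmod, Prelp, Ogn and Aspn had no GC box, and the Ogn and Aspn windows held TATAAA (12.4% of all windows), far from the RefSeq start. The Ogn window ends at 49608014, before the annotated start of the gene at 49608046. None of the 7 windows held TGANTCA (AP-1), CAGACA (a SMAD box), the interferon element or TTCNNNGAA (GAS), searched on both strands, which 6.75%, 17.1%, 2.98% and 7.02% of all windows hold. A match is a run of letters, not a site shown to be bound.

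In controls 1 to 4 Vcan had 1631, 1549, 2075 and 1865 normalized counts, against 4499, 4666 and 6656 in ICI-myocarditis 1 to 3. Every ICI-myocarditis library was thus above every control. Vcan rose by 1.55 on the log2 scale (standard error, SE, 0.213, 95% interval 1.07 to 2.03, limma adjusted p = 0.00373), from 1780 ± 238 (SD, n = 4) to 5274 ± 1200 (SD, n = 3). Its controls were the most even of the 9 genes, with a coefficient of variation of 13.4%. Control 2, in which T cell genes were raised, was its lowest control, as it was for Dcn, Lum, Fmod, Ogn and Prelp. The call held in 18 of 18 alternatives, with log2 fold changes from 1.32 to 1.71. The authors' deposited table gave Vcan a log2 fold change of 1.57 with an adjusted p of 4.47e-09, where 20.2% of its 16882 genes with an adjusted p had one under 0.05.

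Hspg2, the other large proteoglycan, is on chromosome 4 (chr4:137468769-137570630, plus strand, ENSMUSG00000028763.17), and its longest coding transcript has 97 exons. Its normalized counts were 106953, 71419, 55407 and 47980 in controls and 39251, 62670 and 65298 in ICI-myocarditis. ICI-myocarditis 1 was below every control, and the other libraries of that group lay among the controls. The log2 fold change of -0.30 did not pass (SE 0.375, 95% interval -1.15 to 0.54, limma adjusted p = 0.641). The interval does not include a 2-fold rise, and it does include a 2-fold fall.

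Bgn encodes biglycan, a class I member that binds collagen and TGF-beta and, when released from the matrix, the Toll-like receptors TLR2 and TLR4. Its normalized counts were 9188, 5462, 6283 and 5326 in controls and 8524, 16973 and 37297 in ICI-myocarditis. ICI-myocarditis 1 lay below control 1, and the other 2 libraries of its group lay above all controls. The log2 fold change was 1.45 (SE 0.458, 95% interval 0.42 to 2.49, limma adjusted p = 0.0621), from 6565 ± 1799 to 20930 ± 14790 (SD, n = 4 and 3). The result depends on the test and on 1 library: Bgn passed on the recovered reads with edgeR (adjusted p = 0.0443), DESeq2 (0.00226) and limma-voom with quality weights (0.0179), and with limma when ICI-myocarditis 1 was left out (log2 fold change 1.97, adjusted p = 0.0198). Without ICI-myocarditis 3 the log2 fold change was 0.91 (limma adjusted p = 0.202). The authors' deposited table gave Bgn 1.67 with an adjusted p of 0.00245.

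Dcn encodes decorin, the class I relative of biglycan, which coats collagen fibrils and binds TGF-beta. It lies on chromosome 10 (chr10:97479609-97518143, plus strand, ENSMUSG00000019929.16). Dcn normalized counts were 11262, 8596, 22998 and 14269 in controls and 12988, 11574 and 19910 in ICI-myocarditis. All ICI-myocarditis libraries lay within the range of the controls, whose highest library was 2.68 times the lowest. Dcn did not pass: its log2 fold change was 0.11 (95% interval -0.72 to 0.94, SE 0.368, limma adjusted p = 0.877) and turned below 0 in 3 of 18 alternatives. The interval excludes a doubling or a halving of the geometric mean in this model, but not smaller changes.

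Aspn encodes asporin, a class I member with a run of aspartates in its core and a reported inhibitor of TGF-beta. Aspn normalized counts were 1192, 1384, 2463 and 1459 in controls and 3150, 1856 and 1966 in ICI-myocarditis. ICI-myocarditis 1 was above every control, while control 3 exceeded the other ICI-myocarditis libraries. Aspn had a log2 fold change of 0.53 (SE 0.292, 95% interval -0.13 to 1.19, limma adjusted p = 0.260). It was the only one of the 9 genes with its highest ICI-myocarditis value in library 1, since the other 8 peaked in library 3.

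Lum and Fmod encode lumican and fibromodulin, class II members that carry keratan sulfate and bind neighbouring or shared sites on collagen. Lum normalized counts were 1571, 1147, 3497 and 2147 in controls and 2213, 2773 and 3335 in ICI-myocarditis, where every value was above controls 1, 2 and 4 and below control 3. The log2 fold change of Lum was 0.51 (SE 0.353, 95% interval -0.28 to 1.31, limma adjusted p = 0.373). Fmod was the least abundant of the 9, with 116, 39.5, 320 and 50.05 normalized counts in controls and 147, 112 and 453 in ICI-myocarditis. Its controls spanned 8.12-fold, the widest range of the 9, and the log2 fold change of 1.07 had an SE of 0.735 (95% interval -0.59 to 2.72, limma adjusted p = 0.373). That interval includes both 0 and the fold change of Vcan.

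Prelp encodes a class II member with a basic amino-terminal region that links basement membranes to collagen. Prelp normalized counts were 2336, 851, 1622 and 1151 in controls and 1068, 1510 and 2311 in ICI-myocarditis, so that both groups covered nearly the same range. The log2 fold change was 0.16 (SE 0.371, 95% interval -0.68 to 0.995, limma adjusted p = 0.817). Ogn encodes osteoglycin, also called mimecan, a class III member. Ogn normalized counts were 3058, 2687, 6227 and 4578 in controls and 2820, 3308 and 3532 in ICI-myocarditis, where the libraries lay close together at the lower end of the control range. Its log2 fold change was -0.29 (SE 0.300, 95% interval -0.96 to 0.39, limma adjusted p = 0.573).

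**Figure D2:**
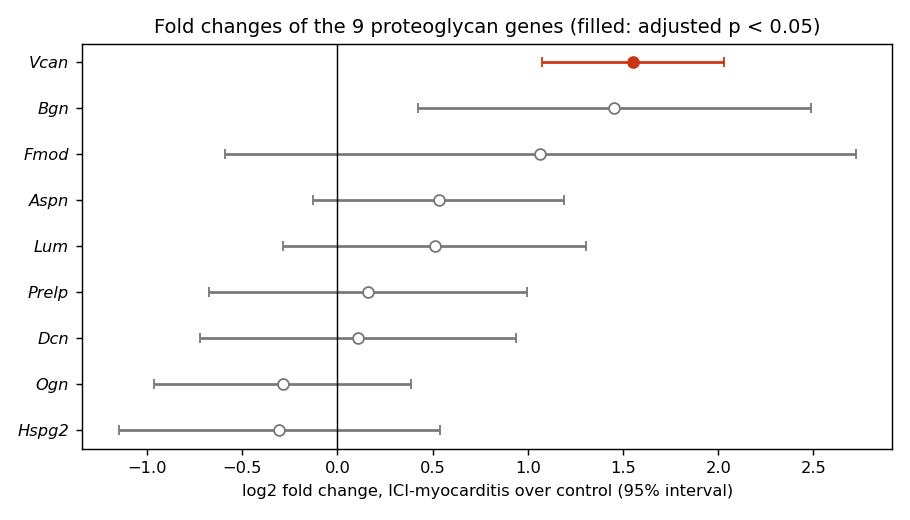
Difference between ICI-myocarditis and control in mean log2(normalized count + 1) of each gene, with 95% intervals from limma (x axis) for the 9 genes (y axis). Vcan, the filled point, has an interval of 1.07 to 2.03, and the widest interval is that of Fmod, -0.59 to 2.72.

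Single libraries moved several of the 9 genes together. Control 3 held the highest control value for 6 of the 9 (Dcn, Lum, Fmod, Ogn, Aspn and Vcan), and control 1 for the remaining 3 (Bgn, Prelp and Hspg2). The summed fat cell markers were 183 normalized counts in control 3 and 4.59 to 15.0 elsewhere, and the summed epicardial markers were 2117 there, against 676 to 1395 in the other controls and 782 to 1837 in ICI-myocarditis. Control 1 had the highest summed basement membrane genes, 282300 normalized counts against 129900 to 203000. The part of these cell types or structures in the spread of the 9 genes was not tested. ICI-myocarditis 3 was highest in its group for 8 of the 9 and also had the highest summed activated fibroblast markers, 50850 normalized counts against 25500 and 33330, while controls lay between 8538 and 14560.

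**Figure D3:**
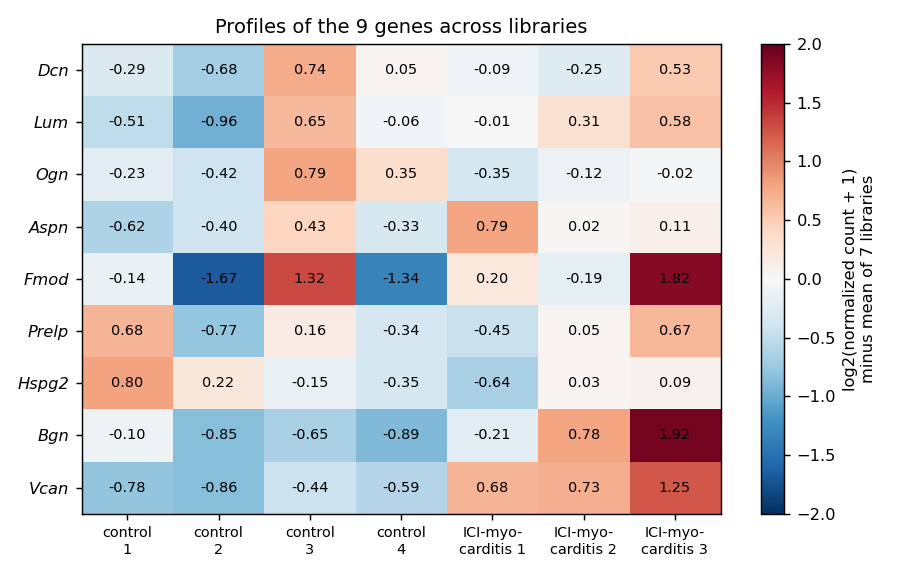
Log2(normalized count + 1) of each gene (rows) in each library (columns), minus that gene's mean over the 7 libraries, as printed in the cells and coloured from -2 to 2. Control 3 is positive for Dcn, Lum, Ogn, Aspn and Fmod, and the Vcan row is negative in every control and positive in every ICI-myocarditis library.

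The profiles over the 7 libraries were compared by the root mean square difference between log2 values after each gene's mean was removed. Among the 9 genes the closest pair was Dcn and Lum, at 0.259, and Dcn and Ogn followed at 0.283. The farthest was Fmod and Hspg2, at 1.27. Dcn and Lum are also chromosomal neighbours, 47.0 kb apart on chromosome 10. Aspn and Ogn, 40.5 kb apart on chromosome 13 with Omd between them, differed by 0.542, and Prelp and Fmod, 115.8 kb apart on chromosome 1, by 0.897. Of the genes between or beside them, Omd had 24.2 to 116 normalized counts in controls and 48.6 to 76.7 in ICI-myocarditis, Ecm2 did not pass (log2 fold change -0.54, limma adjusted p = 0.161), Epyc and Optc did not exceed 7.51, and Kera was at 0 in all 7 libraries.

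Among all tested genes with a mean of at least 100 normalized counts, those closest to Vcan were Scpep1 (difference 0.117), Rtn4 (0.133) and Fstl1 (0.151), a secreted glycoprotein gene. Closest to Bgn were Map1a (0.231), Sfrp1 (0.246) and Anpep (0.263), and closest to Dcn were the matricellular gene Thbs2 (0.136), Colec12 (0.215) and Flrt2 (0.225). For Hspg2 they were Ttc28 (0.0731), Kazn (0.0754) and Mast4 (0.0961), for Ogn C1qtnf2 (0.0974), Sc5d (0.179) and Abcd2 (0.182), and for Prelp Tenm3 (0.146), Mgat3 (0.243) and Crispld2 (0.243). Aspn was closest to Qpct (0.158), Rfc3 (0.193) and Maged2 (0.195), and Lum to Olfml1 (0.211), Dcn (0.259) and Prss23 (0.283). Fmod had no near match: its closest genes were Ildr2 (0.496), Slc39a8 (0.525) and the mesothelial marker Lrrn4 (0.577). These are descriptions over 7 libraries.

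To ask whether 2 of the 9 changed by different amounts, 9 ratios were formed within each library, where scaling cancels. Each was compared by a two-sided exact permutation test over all 35 assignments of 3 libraries, with 0.0286 as the smallest possible p. The Vcan to Dcn ratio was 0.145, 0.180, 0.0902 and 0.131 in controls and 0.346, 0.403 and 0.334 in ICI-myocarditis. All 3 ICI-myocarditis libraries were above all controls, a difference of 1.44 on the log2 scale (exact permutation p = 0.0286, adjusted over 9 ratios 0.0857). The Vcan to Hspg2 ratio differed by 1.86, also without overlap (exact p = 0.0286, adjusted 0.0857).

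Lum to Dcn was 0.133 to 0.152 in controls and 0.170, 0.240 and 0.168 in ICI-myocarditis. This ratio of neighbouring genes was the steadiest of the 9 across controls and was higher in all 3 ICI-myocarditis libraries, by 0.40 on the log2 scale (exact p = 0.0286, adjusted 0.0857). Aspn to Ogn was 0.319 to 0.515 in controls and 1.12, 0.561 and 0.557 in ICI-myocarditis, again without overlap (difference 0.82, exact p = 0.0571, adjusted 0.129). Bgn to Dcn, the ratio of the close class I relatives, was 0.816, 0.635, 0.273 and 0.373 in controls and 0.656, 1.47 and 1.87 in ICI-myocarditis. These groups overlapped (difference 1.34, exact p = 0.114, adjusted 0.171). The ratios Ogn to Dcn, Aspn to Dcn, Fmod to Lum and Prelp to Fmod had exact p from 0.114 to 0.457. No ratio passed 0.05 after adjustment over the 9.

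**Figure D4:**
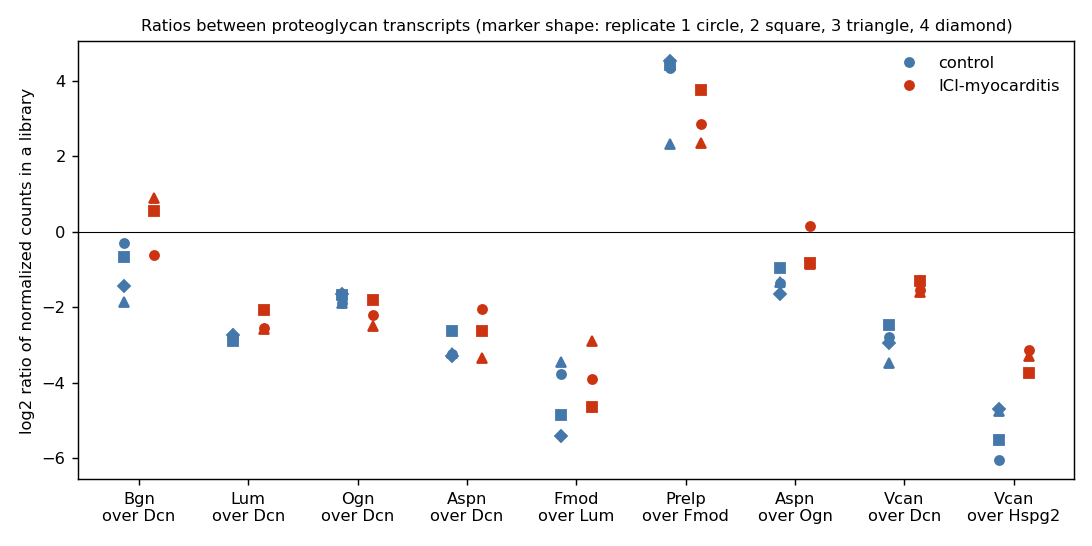
Log2 ratio of the normalized counts of 2 genes within a library (y axis) for the 9 ratios compared (x axis), controls in blue and ICI-myocarditis in red, with the replicate number as marker shape. The groups do not overlap for Vcan over Dcn, Vcan over Hspg2, Lum over Dcn and Aspn over Ogn.

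Other genes of the family and its pathway were read from lists. The counts below are to be read beside the 11.7% of all genes called higher and the 4.00% called lower. Whether any list differs from all genes was not tested. Of 11 other small leucine-rich genes, 8 were tested and 1 rose, Podnl1, with 10.1, 39.5, 11.2 and 0 normalized counts in controls and 106.4, 127.5 and 106.2 in ICI-myocarditis (a rise of 3.73 on the log2 scale, limma adjusted p = 0.0390, SE 1.03). That call was lost when control 1, control 3 or any 1 of the 3 ICI-myocarditis libraries was left out (limma adjusted p = 0.0815 to 0.112), and with a pseudocount of 0.5 (0.0566) or without trend and robust fitting (0.0527), and the median over the 8 was -0.09. Of 24 other proteoglycan genes, 20 were tested, with a median of 0.34, 3 higher and 1 lower. Cd44, a hyaluronan receptor that can carry glycosaminoglycan chains, had 825, 1303, 898 and 837 normalized counts in controls and 4021, 5105 and 7833 in ICI-myocarditis, a rise of 2.52 (limma adjusted p = 0.00251, SE 0.269). Sdc4, a cell surface heparan sulfate proteoglycan, rose by 1.68 (SE 0.226, limma adjusted p = 0.00363). Srgn, the granule proteoglycan of blood cells, rose by 0.97 (limma adjusted p = 0.0159; named after its values were seen), a call lost without ICI-myocarditis 1 or 3 (0.0539 and 0.0727). Bcan fell by 1.64 from a low level of 12.5 to 38.2 normalized counts (limma adjusted p = 0.0484), and the call was lost without any 1 library other than control 4 (0.0629 to 0.148) and passed in 6 of 17 alternatives.

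Acan, the cartilage relative of versican, stayed between 1.25 and 31.3 normalized counts in all 7 libraries (log2 fold change 0.39, limma adjusted p = 0.805, below 0 in 4 alternatives). Tgfbr3, a proteoglycan coreceptor of TGF-beta, did not pass (log2 fold change -0.38, limma adjusted p = 0.253). Of the linker genes whose products can join versican to hyaluronan, Hapln1, Hapln2 and Hapln4 did not exceed 6.26 normalized counts. Hapln3 had 7.97 to 33.3 normalized counts and did not pass (log2 fold change -0.54, limma adjusted p = 0.548). These linker genes were named after their values were seen.

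The enzymes that build the sugar chains were compared by chain type. Of 15 tested chondroitin and dermatan sulfate enzymes, 5 rose and 1 fell (11.7% and 4.00% of all genes), with a median log2 fold change of 0.50. Dse, which epimerises chondroitin to dermatan sulfate, had 401, 665, 639 and 482 normalized counts in controls and 1343, 1536 and 2330 in ICI-myocarditis, a rise of 1.65 (SE 0.261, limma adjusted p = 0.00497). The chain-extending genes Chsy1 and Chpf2 rose by 1.005 and 1.25 (limma adjusted p = 0.00871 and 0.0107). The sulfotransferase genes Chst12 and Ust rose by 1.37 each (limma adjusted p = 0.0199 and 0.0231; Chpf2, Chst12 and Ust were named after their values were seen). Chst7 fell by 0.94 at the margin (limma adjusted p = 0.0499). Chst12 and Ust lost their calls without control 3, ICI-myocarditis 2 or ICI-myocarditis 3 (limma adjusted p = 0.0564 to 0.102), which left 3 higher in each case. The count of higher genes in the list ran from 2 to 6 over the alternatives. Chst7 passed in 5 of 18 alternatives and lost its call without any 1 library other than control 4 (0.0556 to 0.184).

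Of 18 tested heparan sulfate genes, 2 rose and 0 fell, with a median of 0.17, a share near the 11.7% of all genes called higher. Hpse, the gene of heparanase, which cuts heparan sulfate chains, had 28.2, 154, 48.0 and 48.8 normalized counts in controls and 419.5, 405 and 775 in ICI-myocarditis (a rise of 3.14, limma adjusted p = 0.00599, SE 0.526), and Sulf1, an extracellular heparan sulfatase gene, rose by 1.27 (limma adjusted p = 0.0158; 0.0628 without ICI-myocarditis 3). The chain polymerase genes Ext1 and Ext2 had log2 fold changes of -0.03 and 0.14 (limma adjusted p = 0.935 and 0.737; named after their values were seen). None of the 6 tested linkage-region enzymes passed with limma (1 at an unadjusted p under 0.05, and 0 to 1 over the 18 alternatives). Xylt1 had the lowest p (log2 fold change 1.06, limma adjusted p = 0.152) and passed without control 2 (1.35, adjusted p = 0.0415) and with limma-voom (0.0258). None of the 6 tested keratan sulfate enzymes passed either (3 at an unadjusted p under 0.05, and 0 to 2 over the alternatives), with Chst2 lowest (log2 fold change 0.98, limma adjusted p = 0.0650), which passed with DESeq2 (0.0263) and limma-voom (0.0120), and with limma without control 1 (0.0466) or ICI-myocarditis 1 (0.0482). Whether the chain types differ from one another was not tested.

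**Figure D5:**
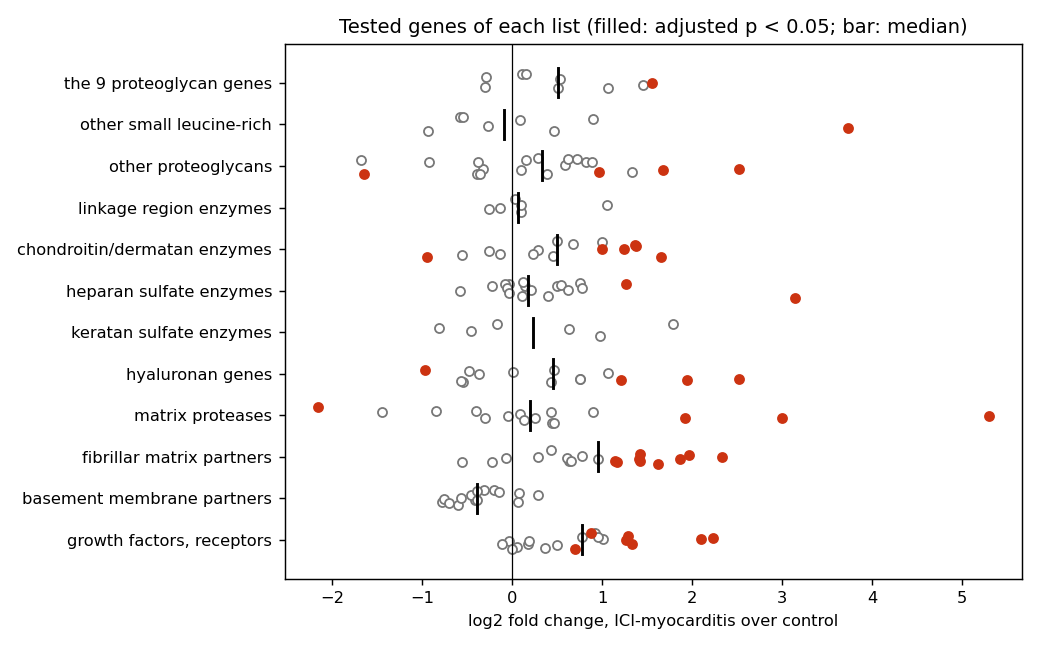
Log2 fold change, ICI-myocarditis over control (x axis), of every tested gene of 12 lists (y axis, with a small vertical scatter for legibility). Filled points passed limma's adjusted p of 0.05, and bars mark list medians, which run from -0.39 for basement membrane genes to 0.96 for fibrillar matrix genes.

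Hyaluronan genes held 14 tested members, of which 3 rose (1 without control 3 or ICI-myocarditis 3) and 1 fell. The shares of all genes were 11.7% higher and 4.00% lower. Besides Cd44, Tnfaip6, which loads protein onto hyaluronan during inflammation, rose by 1.22 (limma adjusted p = 0.0188), Hmmr, a hyaluronan receptor gene of dividing cells, by 1.94 (0.0253, lost without 5 single libraries, named after its values were seen), and Hyal1, a hyaluronidase gene, fell by 0.97 (limma adjusted p = 0.0276). Tnfaip6 lost the call without control 3, ICI-myocarditis 1 or ICI-myocarditis 3 (0.0575 to 0.0986), and Hyal1 without control 1, control 3 or any 1 ICI-myocarditis library (0.0705 to 0.0923). Library size scaling also lost Hyal1 (0.136), and edgeR lost Hmmr (0.0617). The synthase genes Has1, Has2 and Has3 did not pass and differed in direction (log2 fold changes 0.76, 0.47 and -0.48). Their limma adjusted p were 0.286, 0.368 and 0.473, and they were named after their values were seen. Of 16 protease genes that can cut versican or the small proteoglycans, 3 rose and 1 fell (11.7% and 4.00% of all genes). Mmp12, the macrophage elastase gene, rose by 3.00 (limma adjusted p = 0.00467) and Gzmb, a granzyme gene of cytotoxic lymphocytes, rose by 5.30 (limma adjusted p = 0.00897), from 4.03, 152, 12.3 and 8.76 normalized counts in controls to 496, 542 and 1264. Mmp14, a membrane-bound collagenase gene, rose by 1.92 (limma adjusted p = 0.0188, named after its values were seen), a call lost without control 3 or ICI-myocarditis 3 (0.0613 and 0.0536). The versican-cutting ADAMTS genes of the list numbered 6, none called with limma (1 at an unadjusted p under 0.05; lowest limma adjusted p 0.111, Adamts9, named after its values were seen, at -0.85), and Tll2 fell by 2.15 (0.0342), a call lost without control 3, control 4, ICI-myocarditis 1 or ICI-myocarditis 3 (0.0651 to 0.135), and with library size scaling (0.0595), edgeR (0.0754) and limma-voom (0.0840).

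Fibrillar matrix genes are the partners of the small proteoglycans, and basement membrane genes those of perlecan. Of 19 tested fibrillar matrix genes, 9 rose and 0 fell (median log2 fold change 0.96), while of 15 basement membrane genes 0 passed with limma (4 lower at an unadjusted p under 0.05, 0 to 3 over the alternatives and 1 without control 4) and 12 were below 0 (median -0.39). Among all genes tested, 11.7% were called higher and 4.00% lower. Whether the 2 lists differ was not tested. Col14a1, a fibril-associated collagen gene, had 1557, 1247, 1877 and 1403 normalized counts in controls and 3846, 3950 and 4325 in ICI-myocarditis, a rise of 1.42 (SE 0.195, limma adjusted p = 0.00365). Col12a1, another fibril-associated collagen gene, rose by 2.33 (limma adjusted p = 0.00400). The fibrillar count was 4 without control 3, 4 without ICI-myocarditis 2 and 5 without ICI-myocarditis 3. Of the basement membrane genes the lowest p was that of Lama5 (log2 fold change -0.75, limma adjusted p = 0.0533), and DESeq2 and limma-voom called it (0.00405 and 0.0101).

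Of 19 tested growth factor and receptor genes with reported binding to these proteoglycans, 7 rose and 0 fell (median 0.77). Over the alternatives 5 to 10 rose, and 11.7% of all genes were called higher in the main fit. Tlr2, a receptor for released biglycan, had 168, 369, 333 and 272 normalized counts in controls and 1125, 1070 and 1790 in ICI-myocarditis (a rise of 2.23, limma adjusted p = 0.00374, SE 0.307). Wisp1 rose by 1.33 (limma adjusted p = 0.00714). Tgfb2 rose by 1.29, Tgfbr1 by 1.27 and Ctgf by 2.10 (limma adjusted p = 0.0107, 0.00869 and 0.00757), each passing in 18 of 18 alternatives. Tgfbr2 rose by 0.87 and Tlr4 by 0.70 (limma adjusted p = 0.0412 and 0.0466). The Tgfbr2 call passed in 11 of 18 alternatives. The Tlr4 call passed in 5 of 18 and was lost when any 1 library was left out (0.0533 to 0.188). All of these except Wisp1 were named after their values were seen. Tgfb1 had a log2 fold change of 1.01 that did not pass (SE 0.312, limma adjusted p = 0.0585), although it passed without ICI-myocarditis 1 (1.31, adjusted p = 0.0287) and with DESeq2 and limma-voom (0.0162 and 0.0111).

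Marker genes of the cell types that could hold these transcripts moved in different directions. Their counts are to be read beside 11.7% of all genes called higher and 4.00% called lower. Of 8 fibroblast markers 1 rose and 2 fell: Mfap5 by 2.12 (limma adjusted p = 0.00423), while Clec3b fell by 0.98 and Scara5 fell by 1.14 (limma adjusted p = 0.0262 and 0.0320). The summed fibroblast list was 11720 to 15130 normalized counts in controls and 14680 to 19370 in ICI-myocarditis. Within these sums Mfap5 alone held 423 to 823 in controls and 2090 to 4452 in ICI-myocarditis. Clec3b lost its call without control 1, control 3, ICI-myocarditis 1 or ICI-myocarditis 3 (0.0655 to 0.104), and Scara5 without control 1, control 3, ICI-myocarditis 2 or ICI-myocarditis 3 (0.0656 to 0.117). Each passed in 12 of 18 alternatives, and library size scaling was among those that lost both (0.0647 and 0.0513). Of 8 activated fibroblast markers 5 rose, Postn by 2.96 and Cilp by 3.48 (both limma adjusted p = 0.00251), and the others were Thbs4, Cthrc1 and Meox1. Of the remaining 3, Fap had a log2 fold change of -0.88 with every ICI-myocarditis library below every control (limma adjusted p = 0.0621), Acta2 one of -0.64 (0.338) and Comp one of 0.24 (0.847), and 1 marker of the list was called lower without control 1 (Fap, Acta2 and Comp were named after their values were seen).

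All 7 tested macrophage markers and all 7 tested T cell markers rose, with summed levels of 12060 to 17170 against 39440 to 57220 (macrophage) and 128 to 1611 against 6852 to 10490 (T cell) normalized counts. Without single libraries the macrophage count ran from 5 to 7 and the T cell count from 6 to 7. Of 8 mural markers 6 fell, Rgs5 by 1.48 and Vtn by 1.44 (limma adjusted p = 0.00649 and 0.0120), and of 8 endothelial markers 5 fell, Erg by 1.24 and Emcn by 1.16 (0.00657 and 0.00951), with Cldn5, Kdr and Tek the others. The mural count was 3, 2, 3 and 2 without control 1, control 3, ICI-myocarditis 2 and ICI-myocarditis 3, and the endothelial count was 2 without control 1, control 3, ICI-myocarditis 1 or ICI-myocarditis 3 and 3 without ICI-myocarditis 2. Over all 18 alternatives the endothelial count ran from 1 to 7 and the mural count from 2 to 7, and Emcn lost its call with library size scaling (adjusted p = 0.0607). Of 8 epicardial markers 0 passed with limma (0 also at an unadjusted p under 0.05 and in the 18 alternatives), and Krt19 had the lowest p (log2 fold change 0.82, below 0 with limma-voom, limma adjusted p = 0.426). Of 8 cardiomyocyte markers 0 were above 0 (median log2 fold change -0.79), and 4 did not overlap between the groups, against 28.6% of all genes. With limma 0 of them passed (2 lower at an unadjusted p under 0.05, and 0 to 4 lower over the alternatives). Ryr2 was lowest (log2 fold change -1.27, limma adjusted p = 0.0593) and passed with DESeq2 (0.00210), limma-voom (0.0225), library size scaling (0.0377), without trend and robust fitting (0.0416) and without control 2 (-1.47, adjusted p = 0.0180). Of 7 tested valve, tendon and cartilage markers 2 rose, Thbs4 by 3.56 and Sox9 by 1.58 (limma adjusted p = 0.00251 and 0.00896), and Cytl1 fell by 2.78 (0.00365), while the defining genes Tnmd and Col2a1 did not exceed 6.14 and 3.06 normalized counts. Thbs4 and Comp are also in the activated fibroblast list, so the rise of Thbs4 is counted in both lists. Of 5 tested Schwann cell markers 1 rose and 2 fell, and only 1 was above 0 (median log2 fold change -0.34). The lower count ran from 0 to 2 over the alternatives. Mbp, the 1 above 0, rose by 1.83 (limma adjusted p = 0.00596). Kcna1 fell by 1.82 (0.0154), a call lost without control 3 or ICI-myocarditis 2 (0.0505 and 0.0514). The part of any of these cell types in the Vcan or Bgn values was not tested.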

How the data were processed

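Ventricular RNA of 7 mice was sequenced as stranded total RNA libraries with paired 150-base reads, per the labels' protocols. STAR 2.7.3 and GRCm38 (mm10) are named in the submitters' processing notes. The counting program, its annotation and its use of strand are not given in the sources used here. The deposited per-library values are a signal: read counts scaled by a library's own size factor, since all columns are whole multiples of their smallest value (100% within 0.01). The step of control 1 is 1.01, so near 1 that this shows less for that library. The authors also deposited log2 fold changes and their errors, a test score, and p-values before and after adjustment, per the file headers. No column of other samples was present (0).

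The values being normalized, limma 3.58.1 (R 4.3.3; trend and robust) was run on log2(normalized count + 1) for genes reaching 10 normalized counts in 3 or more libraries, and p-values were adjusted (Benjamini-Hochberg) over the 15258 genes tested. Fold changes on this scale understate those of low genes. Alternatives were other pseudocounts, filters and scalings, edgeR 4.0.16 and DESeq2 1.42.0 on recovered reads, limma-voom, a replicate block and leaving out each library. The code was tested on simulated data. Means are given ± SD. Gene positions and lengths are from GENCODE M21 (GRCm38).

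The named genes are the 9 members, in each other list the 2 called genes of lowest p in each direction (or the 1 of lowest p where none passed), the 3 closest profiles of each member, and Acan, Tgfb1, Tgfbr3, Ctla4 and Pdcd1. The members and lists were chosen with earlier results of these data known. Pxylp1, Cemip, Ccn2 (present as Ctgf), Adgre1 and Trac had no row under those names. The fat cell list held 6 genes, none passing the filter, and was read as sums only. The values of 1 marker of the Schwann cell list are not reported here. The reads carry no molecular identifiers, so 1 molecule may be counted more than once. Each library is a separate sample by its label, and p-values measure the spread between these samples.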

Additional observations from a re-analysis of the deposited data

Results flagged for a closer look

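In the 4 controls, 18 values were checked on the log2 scale for a library far from the rest: the 9 genes and the 9 ratios. Of these, 2 had a gap between 1 library and the next that exceeded Dixon's critical share of the range for 4 samples, and chance flags about 1 in 20 groups. The Aspn to Dcn ratio was high in control 2, 0.161 against 0.102 to 0.107 in the other controls, with a gap of 0.898 of the range. The Prelp to Fmod ratio was low in control 3, 5.06 against 20.1 to 23.0, with a gap of 0.919. Control 3 was also the library with the highest Fmod among controls. No single gene of the 9 was flagged.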

How the results depend on the processing

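Vcan passed in all 18 alternatives, and no alternative called a member other than Vcan and Bgn. The count of members called was 2 (Vcan and Bgn, both higher) with edgeR, DESeq2 and limma-voom, and ranged from 1 to 2 when single libraries were left out, 2 only without ICI-myocarditis 1. Signs turned for Dcn (-0.42 with limma-voom, -0.10 without control 2, -0.12 without ICI-myocarditis 3; -0.12 to 0.37 without single libraries), Prelp (-0.11, -0.08 and -0.13 likewise; -0.13 to 0.43), Fmod (-0.24 with limma-voom), Krt19 (-0.41 with limma-voom) and Acan (-0.26 with limma-voom, -0.34 with the replicate block, -0.34 without control 4, -0.11 without ICI-myocarditis 3; -0.34 to 0.94 without single libraries); none of these values passed, and the cause was not tested. Over all genes, 2397 passed (1787 higher, 610 lower). limma-voom called 4003 (1518 lower) and DESeq2 1281 lower, against 311 lower with library size scaling, which moved the median log2 fold change of all genes by 0.158. Without single libraries the count ranged from 1080 to 3345, with 914 to 2253 higher and 166 to 1092 lower. Same-numbered libraries of the 2 groups did not deviate together (correlations -0.271, -0.206 and -0.0784, against -0.477 to 0.451 between different numbers). These values gave no sign of pairing by number but cannot exclude it with so few libraries. The replicate block drops control 4, which has no partner, and with it 1780 genes passed, 389 of them lower, and 1 member, Vcan. Under the block the limma adjusted p was 0.0589 for Chsy1, 0.0621 for Chst12, 0.0653 for Ust, 0.0775 for Tnfaip6, 0.0650 for Hyal1, 0.0639 for Clec3b, 0.0825 for Srgn, 0.0525 for Bcan and 0.0560 for Chst7. The ratios kept their sign in every alternative run, and leaving out libraries was given no test for them because the smallest p would exceed 0.05. Of 63 called genes followed through the alternatives, 24 lost the threshold without at least 1 library. With 3 against 4 animals, the intervals of 4 of the 9 genes include a doubling, so small changes were not detectable.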
